A study of Sus scrofa with 18 samples.

Results

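P2 receptors are cell surface receptors for extracellular nucleotides, and P2RX1 is the member of the family that stood out between the muscle layers of the pig uterus. The genes described here are 9 P2 receptors chosen by symbol (P2RX1, P2RX4, P2RX5, P2RX7, P2RY1, P2RY2, P2RY6, P2RY12 and P2RY14), of which 7 were matched to a row among the 24358 genes of the deposited table. P2RX4 and P2RY1 were not analysed here. P2RX1 was put on the list because its level differed between the layers in these same libraries, so its layer values are a description without a test.

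RNA was sequenced from the circular muscle (CM), the inner layer of the myometrium, and the longitudinal muscle (LM), the outer layer. The animals were 9 Yorkshire gilts (young female pigs), of which 3 were taken on day 12 of pregnancy (GD12M), 3 on day 15 of pregnancy (GD15M) and 3 on day 15 of the estrous cycle (CD15M). The pregnant gilts had been mated naturally, and all tissue came from the mesometrial side of the uterus after the endometrium had been cut away. Each gilt gave a CM and an LM library, which makes 18 libraries in 6 groups of 3. Levels are TPM, a relative abundance that is corrected for gene length. Each library sums to 1000000 TPM, so a level does not show the read depth behind it.

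The P2X receptors are cation channels that open when ATP binds, and the influx of sodium and calcium through them depolarizes the cell. The P2Y receptors are G protein-coupled. Those that act through Gq release calcium from internal stores, and those that act through Gi lower cyclic AMP. In smooth muscle of the bladder and the vas deferens, ATP released from sympathetic or parasympathetic nerves contracts the muscle through P2RX1. Enzymes on the cell surface break ATP down to adenosine, which acts on a separate set of receptors.

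The libraries carried signs of cells other than muscle, and they moved with the layer. The summed level of 7 epithelial markers (of 8 listed) was 933 to 2332 TPM in CM and 13.03 to 692 TPM in LM, where GD15M_LM2 at 692 and CD15M_LM1 at 291 were the highest. The summed level of 8 smooth muscle markers was 10775 to 28699 TPM in CM and 29511 to 39780 TPM in LM, except for 11795 TPM in CD15M_LM3. In CD15M_LM3 ribosomal protein genes also took 13.4% of all TPM, against 2.82% to 5.02% in the other libraries. For these reasons, some results that rest on CD15M_LM3 or GD15M_LM2 are also given without them, and the others include them. The number in a library name is the gilt within its state.

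Among the 14 P2 receptors with a row in the table, P2RX1 was the most abundant in every LM library. In CM it was above P2RX7 in some libraries and below it in others. It lies on chromosome 12 at 49956329 to 49974789 in Sscrofa11.1 (ENSSSCG00000022405). In LM it was at 136.3, 372.2 and 318.1 TPM in the GD12M gilts, at 555.2, 521.5 and 451.5 TPM in the GD15M gilts, and at 127.4, 69.5 and 17.4 TPM in the CD15M gilts. In CM it was at 3.63, 35.5 and 1.07 TPM in the GD12M gilts, at 11.004, 11.08 and 11.8 TPM in the GD15M gilts, and at 16.8, 10.6 and 5.18 TPM in the CD15M gilts. In every gilt LM was above CM, and the layers overlapped across gilts only because CD15M_LM3 lay below GD12M_CM2.

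**Figure D1:**
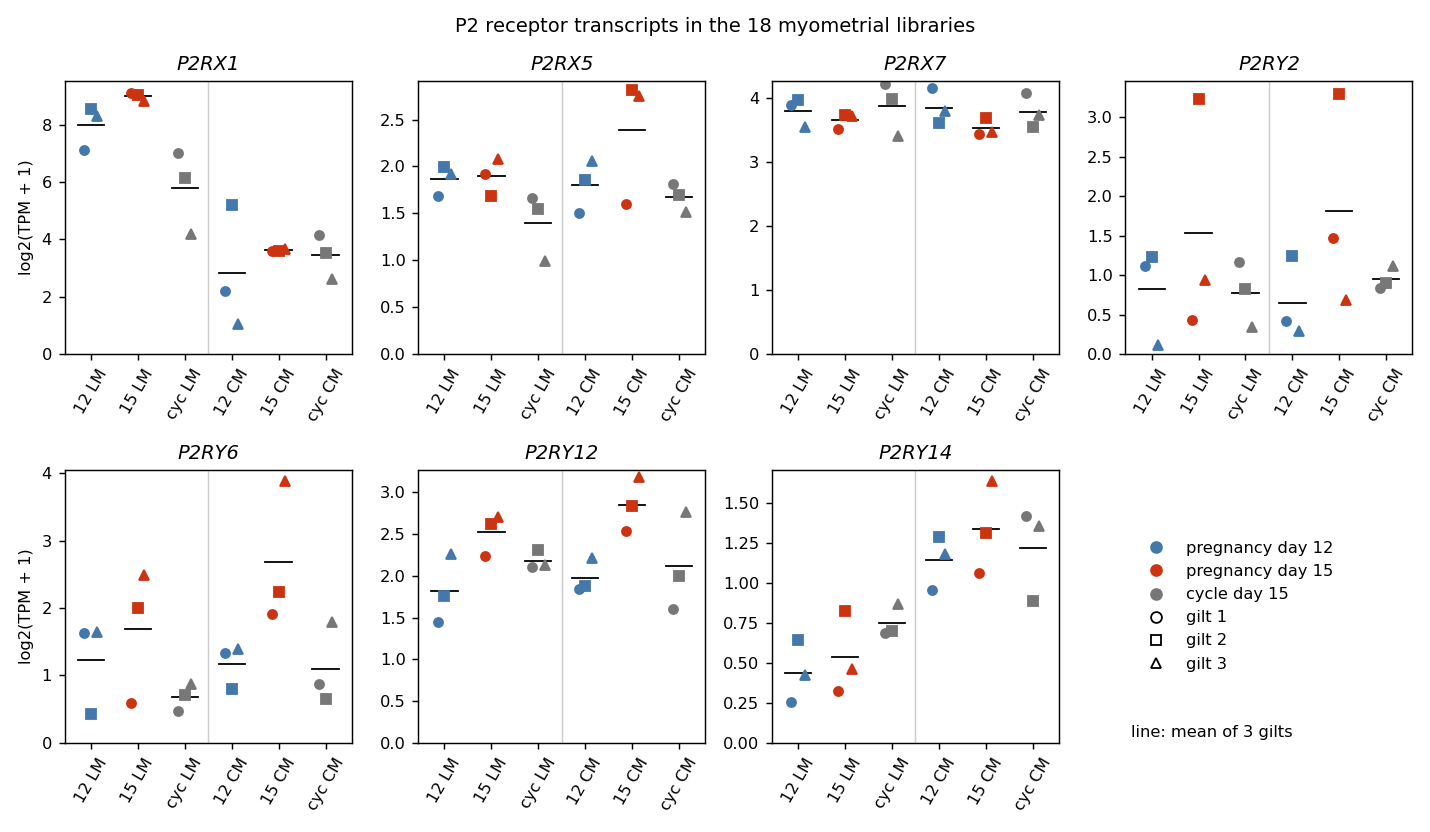
Level of the 7 measured P2 receptors as log2(TPM + 1) in each of the 18 libraries, with the layers separated by a vertical line (12, pregnancy day 12; 15, pregnancy day 15; cyc, cycle day 15). Points are gilts and horizontal lines are means of 3 gilts. P2RX1 is high in LM, P2RX7 is level across all groups, and P2RY2 stands high in both layers of a single gilt.

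The layer difference of P2RX1, as CM minus LM on the log2(TPM + 1) scale, was -5.17 ± 0.57 (SE of the limma fit, n = 3 gilts) in GD12M, -5.37 ± 0.57 in GD15M and -2.34 ± 0.57 in CD15M, with a mean over the 3 states of -4.29 ± 0.33. This SE rests on 1 estimate of the spread over all 18 libraries. It is therefore the same in each state and does not show the spread of the 3 gilts of that state. The TPM ratio of LM to CM within a gilt ran from 3.36 in CD15M gilt 3 to 298.0 in GD12M gilt 3. The GD15M gilts were close together (38.3 to 50.5), whereas the GD12M gilts were spread over 10.5 to 298.0, with a wider spread in their CM than in their LM levels. As a description, the layer difference was 3.03 ± 0.80 more negative on the log2 scale in GD15M than in CD15M (-3.03), and differed by -0.20 ± 0.80 between GD15M and GD12M, a value whose sign depends on the pseudocount and on GD12M gilt 2. Among all 15343 genes tested, 14.5% passed in the mean layer comparison, 2.1% as lower in CM. A bulk library cannot tell fewer cells of a type from less RNA per cell.

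**Figure D2:**
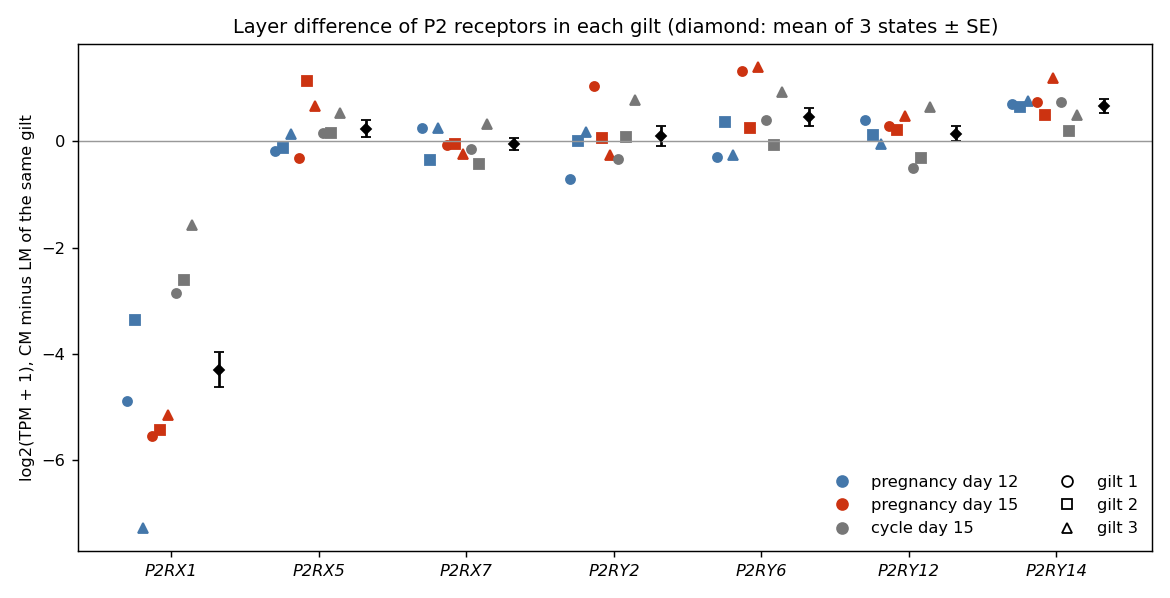
Layer difference of each P2 receptor in each of 9 gilts, as CM minus LM of the same gilt on the log2(TPM + 1) scale, with the mean of the 3 states and its SE as a diamond. P2RX1 lies between -7.27 and -1.58 in all gilts, P2RY14 lies above 0 in all gilts, and the other receptors scatter around 0.

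As a share of the summed TPM of the 14 P2 receptors with a row in the table, P2RX1 made up 48.5% to 96.0% in LM (median 92.4%) and 1.96% to 54.7% in CM (median 17.5%). The lowest LM share was in CD15M_LM3 and the highest CM share in GD12M_CM2. Since LM libraries held more smooth muscle transcripts, P2RX1 was also set against the summed smooth muscle markers. Per 1000 TPM of those markers it was at 14.9, 16.3 and 15.3 in GD15M_LM, at 3.43, 11.08 and 8.76 in GD12M_LM, at 4.29, 2.24 and 1.48 in CD15M_LM, and at 0.077 to 1.24 in CM. The lowest LM value (1.48, CD15M_LM3) lay just above the highest CM value (1.24, GD12M_CM2). Because P2RX1 was chosen for its layer difference, this separation is a description and no support of its own. The part of tissue composition in the P2RX1 difference was not tested further.

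Ordered by group mean, P2RX1 was at 509.4 ± 52.9 TPM (SD, n = 3) in GD15M_LM, 275.5 ± 123.6 in GD12M_LM, 71.5 ± 55.03 in CD15M_LM, 13.4 ± 19.2 in GD12M_CM, 11.3 ± 0.44 in GD15M_CM and 10.9 ± 5.83 in CD15M_CM. The ranges of GD15M_LM, GD12M_LM and CD15M_LM did not overlap, while the CM groups overlapped with each other. The question of whether pregnancy changes the level within a layer was tested on the 9 libraries of that layer with limma and Benjamini-Hochberg adjustment over all genes. In LM, P2RX1 was higher in GD15M than in CD15M by 3.21 ± 0.66 on the log2 scale (unadjusted p = 0.00088, adjusted p = 0.126), which did not pass. The layer difference that put P2RX1 on the list rests on these same LM levels. The p-values of P2RX1 in LM, with or without libraries removed, are therefore not independent of that choice and no support of their own. Without CD15M_LM3 the value was 2.42 with an adjusted p of 0.020, and without both LM libraries that stand apart it was 2.40 with an adjusted p of 0.047. Without GD15M_LM2 alone it was 3.19 with an adjusted p of 0.27, so the call depended on CD15M_LM3. Over all 11 alternatives the difference was 2.40 to 3.82 and the limma adjusted p 0.020 to 0.39. With all 9 LM libraries, 0.178% of 14025 genes passed in this comparison. More genes passed where P2RX1 did, with 368 of 13923 without CD15M_LM3 and 317 of 13622 without both LM libraries that stand apart.

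Between the days of pregnancy, P2RX1 in LM was 1.003 ± 0.66 higher in GD15M than in GD12M (limma adjusted p = 0.94). No gene passed in that comparison (0%), and 692 genes had an unadjusted p below 0.05. In CM, P2RX1 was not shown to differ with the state of the gilt, at 0.18 ± 0.87 for GD15M minus CD15M (limma adjusted p = 0.94) and 0.80 ± 0.87 for GD15M minus GD12M (limma adjusted p = 0.71). The large error in CM came with the spread of 1.07 to 35.5 TPM in GD12M_CM. The share of genes that passed was 0.155% and 0.027% in these comparisons.

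The nearest annotated genes on either side of P2RX1 were also lower in CM. CAMKK1, a kinase activated by calcium and calmodulin, ends 5660 bases before P2RX1, and ATP2A3, the calcium pump SERCA3 of the endoplasmic reticulum, starts 5698 bases after it. CAMKK1 was at 66.1 to 142.5 TPM in the pregnant LM libraries and 21.7 to 41.9 TPM in the pregnant CM libraries, without overlap. In the cyclic gilts it was at 7.40 to 79.8 TPM in LM and 16.3 to 33.1 TPM in CM, where the value of 7.40 was that of CD15M_LM3. The mean layer difference was -1.39 ± 0.23 for CAMKK1 (limma adjusted p = 0.0010) and -1.03 ± 0.26 for ATP2A3 (limma adjusted p = 0.011), each lower in CM in 8 of 9 gilts. That of ATP2A3 fell below the fold threshold of 1 on the log2 scale when any of 4 gilts was left out (-0.95 to -0.88). The differences of both genes were smaller than that of P2RX1 between them.

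**Figure D3:**
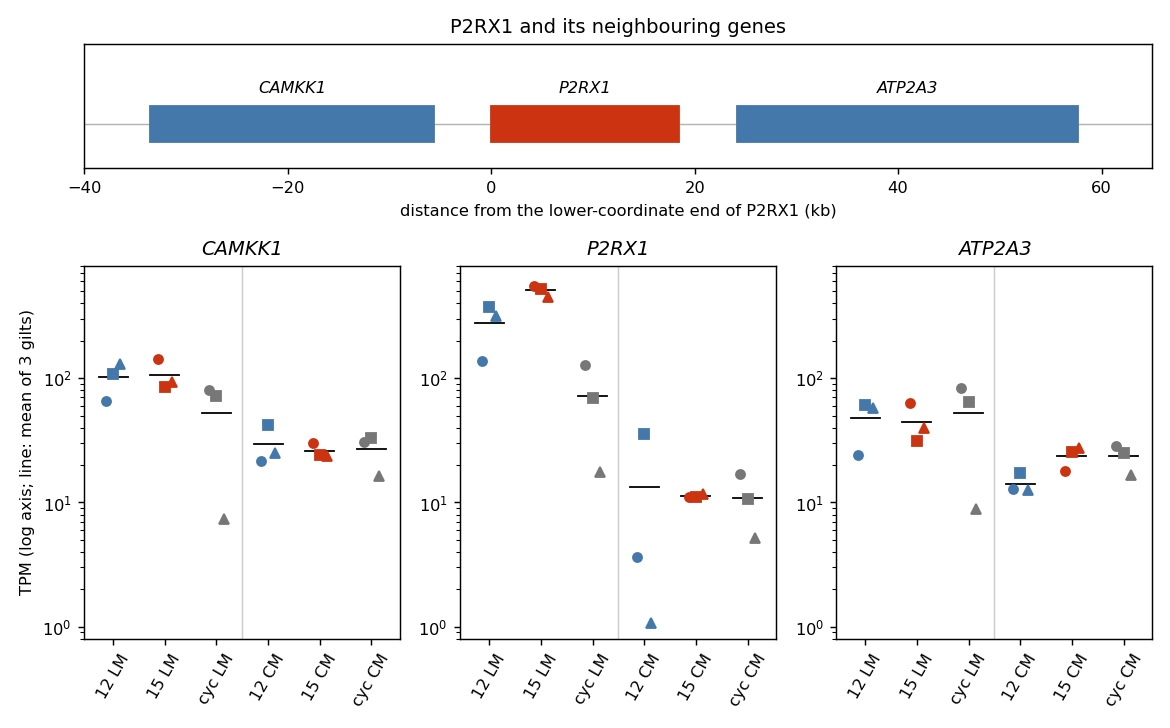
Upper panel, positions of CAMKK1, P2RX1 and ATP2A3 along chromosome 12 in kilobases from the end of P2RX1 with the lower coordinate. Lower panels, TPM of the 3 genes in each library on a log axis (12, pregnancy day 12; 15, pregnancy day 15; cyc, cycle day 15), with lines at the mean of 3 gilts. All 3 are higher in the LM of pregnant gilts as a group than in CM, and CD15M_LM3 is the lowest LM library for each.

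The genes whose levels followed P2RX1 most closely over the 18 libraries, among 12201 with a symbol, were THBS4, a secreted thrombospondin of the extracellular matrix (r = 0.95), and CCN1, a matricellular protein (r = 0.95). They were followed by the signaling adaptor TRAF5 (r = 0.93), the integrin-linked kinase ILK (r = 0.93) and UNC13D (r = 0.92), which acts in granule exocytosis. These correlations share the layer difference that put P2RX1 on the list and come without a test. Within the 9 LM libraries they were 0.81 to 0.91, and within the 9 CM libraries 0.61 to 0.82. THBS4 was lowest in GD12M_CM3 (6.46 TPM), as P2RX1 was, but its highest level was in GD15M_LM3 (742.8 TPM), whereas that of P2RX1 was in GD15M_LM1.

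P2RX7, the channel that macrophages use to activate the inflammasome, was the most even member. It was at 9.55 to 17.6 TPM over all 18 libraries, and group means ran only from 10.6 ± 1.11 TPM (SD, n = 3) in GD15M_CM to 13.99 ± 4.10 in CD15M_LM. The range of every group overlapped with that of every other group. The mean layer difference was -0.05 ± 0.12 (limma adjusted p = 0.74), with CM higher in 3 of 9 gilts. Under median-ratio scaling, which moves the median of all genes from 0.24 to about 0, P2RX7 was lower in CM by 0.32 on the log2 scale (-0.32, limma adjusted p = 0.023), below the fold threshold. P2RX7 lies on chromosome 14 at 31415188 to 31476502 and overlaps IFT81, and since the strand setting of the counting is not stated, reads of the shared stretch cannot be assigned. IFT81 was at 7.02 to 25.6 TPM.

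P2RX5 is a further ATP-gated channel, on chromosome 12 at 49780241 to 49796287. It was at 0.98 to 6.05 TPM, and the highest values were 6.05 TPM in GD15M_CM2 and 5.71 TPM in GD15M_CM3, while GD15M_CM1 was at 2.04 TPM. The layer difference was 0.50 ± 0.27 in GD15M (limma adjusted p = 0.24), with 0.90 without gilt 1 and 0.18 without gilt 2, and 0.24 ± 0.16 as the mean of the states (limma adjusted p = 0.25). The genes most like it were CARMIL2 (r = 0.89), MYO1F (r = 0.88) and WAS (r = 0.87), the last being the actin regulator of blood cells that is mutated in human Wiskott-Aldrich syndrome. T cell marker levels were also high in the same libraries, at 56.9 TPM in GD15M_CM2 and 103.6 TPM in GD15M_CM3, against 4.03 to 28.1 TPM elsewhere (sum of 5 markers). The part of immune cells in the P2RX5 values was not tested.

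P2RY6, a Gq-coupled receptor for UDP, had its highest levels in GD15M. In CM it was at 1.52, 0.74 and 1.61 TPM in GD12M, at 2.76, 3.72 and 13.7 TPM in GD15M and at 0.82, 0.57 and 2.45 TPM in CD15M. Each GD15M_CM library was above every other CM library. In LM it was at 2.09, 0.35 and 2.12 TPM in GD12M, at 0.51, 2.99 and 4.59 TPM in GD15M and at 0.38, 0.64 and 0.82 TPM in CD15M, where the groups overlapped.

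In CM the difference of P2RY6 was 1.58 ± 0.52 for GD15M minus CD15M (unadjusted p = 0.013, limma adjusted p = 0.21) and 1.504 ± 0.52 for GD15M minus GD12M (unadjusted p = 0.017, limma adjusted p = 0.22), and neither passed. These comparisons share the GD15M_CM libraries. Between the layers in GD15M, P2RY6 was 0.98 ± 0.29 higher in CM (limma adjusted p = 0.043), just below the fold threshold. Without GD15M gilt 2 it was 1.36 with a limma adjusted p of 0.027 and passed, whereas the limma adjusted p was 0.23 without gilt 1, 0.23 without gilt 3 and 0.28 without the gilt block. Over 8 alternatives it ran from 0.012 to 0.28. The layer effect was 1.05 ± 0.42 larger in GD15M than in GD12M (unadjusted p = 0.031), which did not pass (limma adjusted p = 0.65).

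P2RY6 was highest where the summed macrophage markers were highest, though not where each marker was. The summed level of 10 macrophage markers was 1074 TPM in GD15M_CM3 and 695 TPM in GD15M_LM3, the libraries with the highest P2RY6 levels, and 293 to 545 TPM elsewhere. In GD15M_CM3 the complement genes C1QA, C1QB and C1QC (208.1, 250.8 and 285.6 TPM) and TYROBP (191.7 TPM) made up most of the sum and were at their highest. In the same library CD163, a scavenger receptor of macrophages, was at 4.85 TPM, its lowest level, and CD68 (25.5 TPM), CSF1R (36.01 TPM) and MRC1 (15.8 TPM) were within the range of the other libraries. Per 1000 TPM of these markers P2RY6 was at 12.8 in GD15M_CM3, 8.05 in GD15M_LM2 and 1.20 to 6.83 in the other libraries. The genes most like P2RY6 were the interferon regulatory factor IRF5 (r = 0.95), HLA-DRA, a class II antigen presentation gene (r = 0.94), and TYROBP, an adaptor of myeloid receptors (r = 0.92), which is itself among the macrophage markers. The part of macrophage number in the P2RY6 values was not tested.

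**Figure D4:**
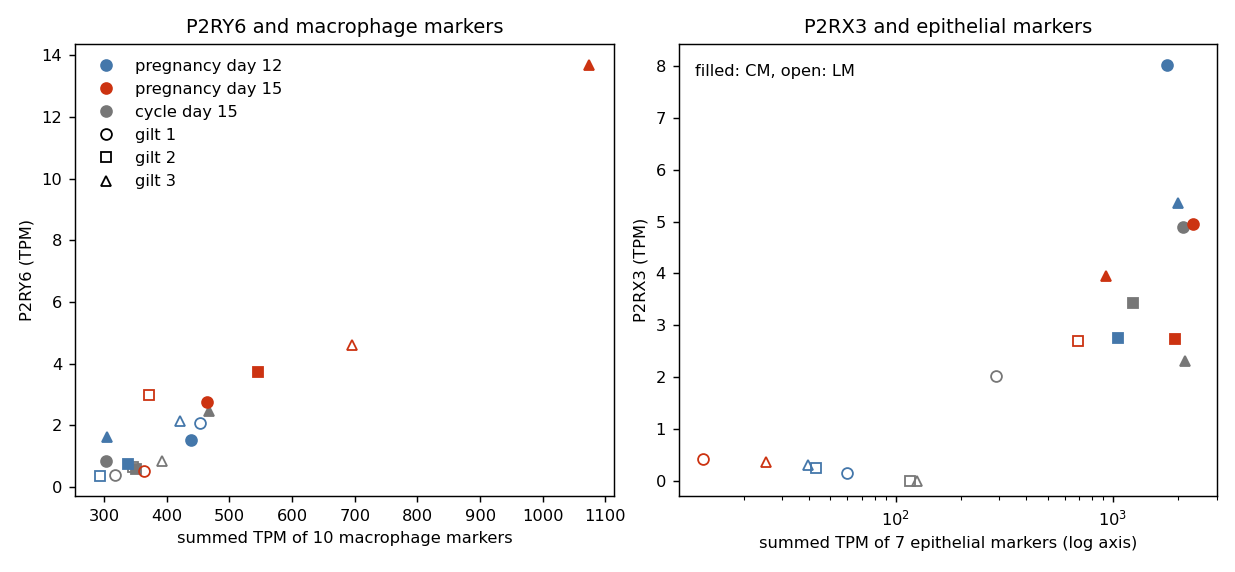
Left, P2RY6 in TPM against the summed TPM of 10 macrophage markers in the 18 libraries. Right, P2RX3 in TPM against the summed TPM of 7 epithelial markers (log axis), with CM filled and LM open. GD15M_CM3 is the highest in both measures on the left at 13.7 and 1074 TPM, and on the right the LM libraries with 692 and 291 TPM of epithelial markers are those with P2RX3 above 2 TPM.

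P2RY2, a Gq-coupled receptor for ATP and UTP, neighbours P2RY6 on chromosome 9 (7672294 to 7695085 against 7708452 to 7759721), with 13366 bases between them. It was high in a single gilt. GD15M gilt 2 had 8.41 TPM in LM and 8.86 TPM in CM, while the other 16 libraries lay between 0.087 and 1.78 TPM. The same gilt stood out in both layers for the genes most like P2RY2, with MMP8, the neutrophil collagenase, at 78.7 TPM in LM and 82.7 TPM in CM and at no more than 1.003 TPM elsewhere, and SULT1E1, the estrogen sulfotransferase, at 27.4 and 36.6 TPM. The correlations over 18 libraries were 0.92 for SULT1E1, MMP8 and SERPINB7 alike, and they rest on these 2 libraries. The state differences of P2RY2 therefore rest on them as well. For GD15M minus CD15M in LM the value was 0.76 ± 0.68 (limma adjusted p = 0.64) and turned to -0.09 without GD15M_LM2. The mean layer difference was 0.09 ± 0.18 (limma adjusted p = 0.70).

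P2RY12 and P2RY14 are Gi-coupled receptors, for ADP and for UDP-glucose, and both lie within MED12L on chromosome 13 (P2RY12 at 91522754 to 91572195 and P2RY14 at 91396006 to 91453761). MED12L was at 0.13 to 1.28 TPM. P2RY12 is the platelet receptor that clopidogrel blocks, and in the brain it marks microglia. Here it was at 1.73 to 8.10 TPM, and the group mean was highest in GD15M in each layer, with 4.796, 6.13 and 8.10 TPM in CM and 3.73, 5.17 and 5.53 TPM in LM. In GD12M it was at 2.59, 2.67 and 3.64 TPM in CM and 1.73, 2.40 and 3.80 TPM in LM. In CD15M it was at 2.03, 2.99 and 5.80 TPM in CM and 3.32, 3.96 and 3.38 TPM in LM, which overlapped GD15M in both layers.

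The P2RY12 ranges of GD15M and GD12M did not overlap in CM, and in LM they overlapped by 1 pair of libraries. The difference was 0.87 ± 0.33 in CM (unadjusted p = 0.025, limma adjusted p = 0.25) and 0.70 ± 0.28 in LM (unadjusted p = 0.035, limma adjusted p = 0.93), and neither passed. For GD15M minus CD15M it was 0.73 ± 0.33 in CM (limma adjusted p = 0.33) and 0.34 ± 0.28 in LM (limma adjusted p = 0.61). The mean layer difference was 0.14 ± 0.14 (limma adjusted p = 0.45). The genes most like P2RY12 were GPNMB, a glycoprotein of macrophages and melanocytes (r = 0.84), NOSIP (r = 0.84) and HLA-DOB (r = 0.83). Because P2RX1 and P2RY12 are both platelet receptors, platelet markers were read as well. GP9 was at 5.71 to 19.5 TPM, GP6 at 0 to 2.55 TPM and GP1BB at 0 to 1.18 TPM. PPBP, among the most abundant platelet transcripts, was at or below 0.20 TPM in every library, and TREML1 reached 0.25 TPM. The markers PF4, ITGA2B and GP1BA were not analysed here, and the part of platelets was not tested.

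P2RY14 was low in all libraries and the only other member with the same layer direction in every gilt. It was at 0.19 to 0.83 TPM in LM and 0.85 to 2.12 TPM in CM, and CM was higher in 9 of 9 gilts. No LM library reached the filter of 1 TPM, so the gene entered the test through its CM libraries only, and the layer direction is no support of its own. The mean difference was 0.66 ± 0.13 (limma adjusted p = 0.0024), below the fold threshold. With a pseudocount of 0.1 in place of 1 it was 1.34 (limma adjusted p = 0.0022) and passed, and over 14 alternatives it was 0.52 to 1.34. By state it was 0.70 ± 0.22 in GD12M (limma adjusted p = 0.046), 0.80 ± 0.22 in GD15M (limma adjusted p = 0.031) and 0.47 ± 0.22 in CD15M (limma adjusted p = 0.16). The genes most like it were the death receptor FAS (r = 0.96), CCDC146 (r = 0.93) and the plasma cell gene MZB1 (r = 0.91). The epithelial markers had the same layer direction as P2RY14, with 6 of 7 tested markers passing as higher in CM, and their part was not tested.

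Across the comparisons, none of the tested members passed in any layer comparison, and P2RX1 was not tested there. Of 6 tested, 0 passed in GD12M, GD15M, CD15M or the mean, where limma called 15.9%, 14.4%, 12.7% and 14.5% of all genes. At an unadjusted p below 0.05 limma gave 1, 2, 0 and 2 of these members. Of all 15343 genes, 5122, 4832, 5093 and 7781 were below that p in the same comparisons. The median difference of the 6 was 0.19 in the mean comparison, against 0.24 for all genes. None of the 7 members tested in CM or the 6 in LM passed between states. For all genes the share was 0.155% and 0.027% in CM and 0.178% and 0% in LM (GD15M minus CD15M and GD15M minus GD12M). At an unadjusted p below 0.05 there were 1 and 2 members in CM, in the same order, and 1 in each LM comparison. Of all genes, 2255 and 2302 of 14813 in CM and 1679 and 692 of 14025 in LM were below that p. For the difference of the layer effect, 0 of 6 passed, where 0.189% (GD15M minus CD15M) and 0.0196% (GD15M minus GD12M) of all genes did.

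Among the other P2 receptors, 7 of 8 had a row and 4 were tested. P2RX3, the ATP-gated channel known from sensory neurons, passed as higher in CM, by 1.74 ± 0.24 as the mean of the states (limma adjusted p = 0.00036). It was at 2.31 to 8.03 TPM in CM and at 0 to 0.41 TPM in LM except for 2.70 TPM in GD15M_LM2 and 2.02 TPM in CD15M_LM1, the LM libraries with the highest epithelial marker levels. P2RX3 reached the filter through its CM libraries, so its layer call is no support of its own. P2RX6 (0.56 ± 0.17), P2RX2 (0.57 ± 0.31) and P2RY11 (0.08 ± 0.12) did not pass. P2RX2 had a single high library, GD12M_CM3 at 17.3 TPM.

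Several enzymes that break down extracellular nucleotides were higher in CM. Of 9 tested in the mean comparison, 5 passed as higher in CM and 0 as lower, where 12.4% of all genes passed as higher, and their median difference was 1.37 against 0.24 for all genes. The list was chosen with earlier results of these data known, so these shares are a description and no test of the list. ALPL, the tissue-nonspecific alkaline phosphatase, was higher by 3.67 ± 0.31 (limma adjusted p = 1.5e-05), and ENPP3, a nucleotide pyrophosphatase, by 3.15 ± 0.28 (limma adjusted p = 2.2e-05). ENTPD3, which removes phosphates from ATP and ADP, was higher by 1.74 ± 0.28, and NT5E (CD73), which makes adenosine from AMP, by 1.37 ± 0.21. ACP3, an acid phosphatase that can also use AMP, was higher by 1.48 ± 0.23. With LM levels of 0 to 0.53 TPM it entered the test through its CM libraries only, so its call is no support of its own. ENTPD1 (CD39) did not pass (0.32 ± 0.15). The list also holds the adenosine deaminases ADA and ADA2, which act on adenosine and not on nucleotides. Neither passed, and ADA was lower in CM in 9 of 9 gilts while ADA2 was higher in 8 of 9.

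ALPL and ENPP3 were also high in the LM library with the most epithelial marker TPM, which was not so for every enzyme. In GD15M_LM2, ALPL was at 79.2 TPM and ENPP3 at 8.13 TPM, while the other GD15M_LM libraries held ALPL at 2.13 and 3.30 TPM and ENPP3 at 0.34 and 0.67 TPM. ENTPD3 was at 42.5 TPM in GD15M_LM2 against 6.78 and 1.32 TPM in the other libraries of its group, but it was also at 18.5 and 23.2 TPM in GD12M_LM1 and GD12M_LM3, which were low in epithelial markers (59.7 and 39.7 TPM). NT5E was at 1.34 TPM in GD15M_LM2 and 1.304 TPM in GD15M_LM1. ALPL was highest in GD12M_CM, at 208.7 ± 27.2 TPM (SD, n = 3), against 70.3 ± 54.7 TPM in GD15M_CM. P2RX1 itself was at 521.5 TPM in GD15M_LM2, within the range of its group. The part of epithelial cells in the enzyme differences was not tested.

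Genes of ATP release showed no layer call in the mean comparison. Of 9 tested, 0 passed, where 14.5% of all genes did, 5 had a limma adjusted p below 0.05 with changes under the fold threshold, and the median of the 9 was 0.21. In single states, ANKH, a membrane protein that exports ATP, passed as higher in CM in GD12M (1.79 ± 0.45, limma adjusted p = 0.018), and the channel gene CALHM6 passed in GD15M (1.57 ± 0.31, limma adjusted p = 0.0066). ANKH lost its call without GD12M gilt 1 (limma adjusted p = 0.071) or gilt 3 (limma adjusted p = 0.15), and CALHM6 without GD15M gilt 1 (limma adjusted p = 0.059) or without the gilt block (limma adjusted p = 0.16). Outside GD15M_CM (5.33, 1.13 and 22.6 TPM), CALHM6 reached 1 TPM only in CD15M_CM3 (1.28 TPM) and GD15M_LM3 (5.70 TPM). It thus entered the test through GD15M_CM, and its call there is no support of its own. Among adenosine receptors and nucleoside transporters 1 of 9 passed, against 14.5% of all genes, namely SLC29A4, a plasma membrane transporter of monoamines and adenosine, which was higher in CM by 3.14 ± 0.37 (limma adjusted p = 0.00013). It was at 13.4 to 59.9 TPM in CM and 0.39 to 13.2 TPM in LM, where the highest levels, 13.2 TPM in CD15M_LM1 and 6.26 TPM in GD15M_LM2, were in the LM libraries with the most epithelial marker TPM, whose part was not tested. The adenosine receptor ADORA2B differed by 0.46 ± 0.13, below the fold threshold.

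The genes that carry the signal of P2Y receptors were split between the layers. Of 15 tested, 1 passed as higher in CM and 3 as lower, where 12.4% and 2.1% of all genes did, and the median was 0.03. The list was chosen with results of these data known, CAMKK1 and ATP2A3 included. ITPR3, a calcium release channel of the endoplasmic reticulum opened by inositol trisphosphate, was higher in CM by 1.80 ± 0.22 (limma adjusted p = 0.00013) and was at 23.6 TPM in GD15M_LM2 against 0.60 to 7.42 TPM in the other LM libraries. PLCB4, a phospholipase C driven by Gq, was lower in CM by 1.35 on the log2 scale (-1.35 ± 0.13, limma adjusted p = 3.4e-05) and lower in 9 of 9 gilts. CAMKK1 and ATP2A3, described above as neighbours of P2RX1, were the other genes that passed as lower in CM. CAMKK2, a kinase related to CAMKK1, was lower in CM in 9 of 9 gilts at -0.96 ± 0.12 (limma adjusted p = 0.00018), just under the fold threshold, and it passed in GD15M alone (-1.34 ± 0.21, limma adjusted p = 0.0023). ITPR1, the channel of the same family that is common in smooth muscle, was at -0.45 ± 0.20 and did not pass.

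**Figure D5:**
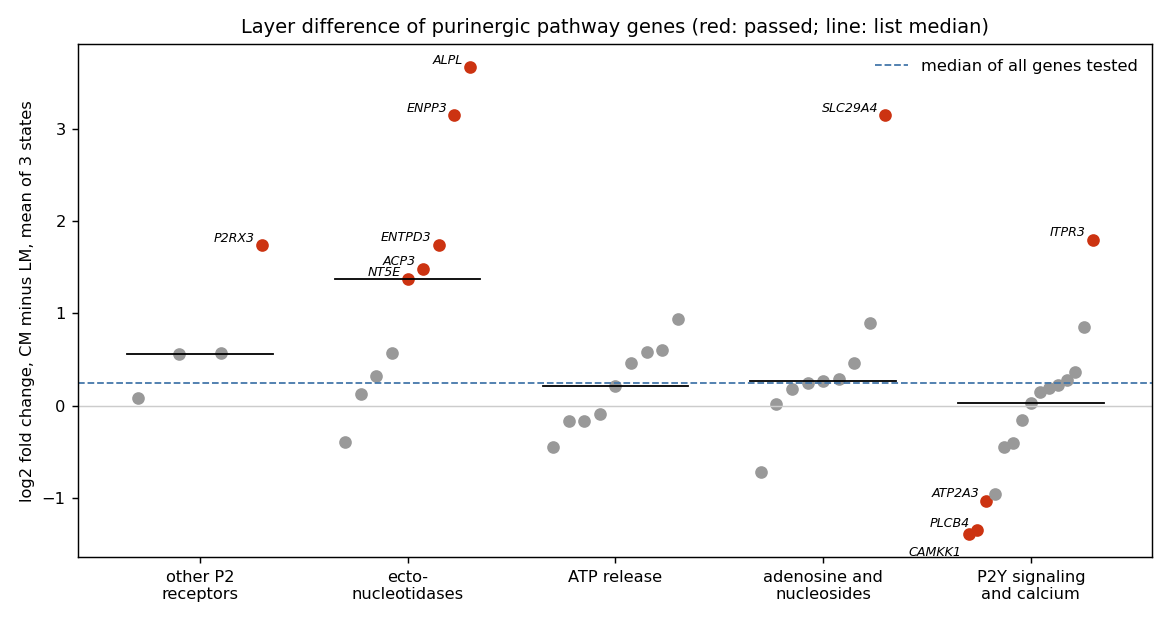
Mean layer difference of the tested genes of 5 purinergic lists on the log2 scale, as CM minus LM, with genes that passed in red and named, list medians as black lines and the median of all genes tested (0.24) as a dashed line. The ectonucleotidases have the highest median at 1.37, and the P2Y signaling list holds genes that passed in either direction.

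Between states, 0 of the pathway genes passed in CM (44 tested) or LM (39 tested), and 0 of 46 passed for the difference of the layer effect. In these comparisons 0% to 0.189% of all genes passed. At an unadjusted p below 0.05 limma gave 8 genes in each CM comparison, 6 and 1 in LM for GD15M minus CD15M and GD15M minus GD12M, and 6 in each comparison of the layer effect. In the same order of states, the counts for all genes were 2255 and 2302 of 14813 in CM and 1679 and 692 of 14025 in LM. For the layer effect they were 1442 and 1065 of 15343.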

How the data were processed

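Whole muscle layers of 9 gilts were profiled by RNA-seq in 18 libraries. Per the labels and the study's methods, the authors used HISAT2 2.1.0 to map reads to Sscrofa11.1 (Ensembl annotation) and HTSeq 0.9.1 to count them. The deposited values are TPM for each gene. The gene lengths and strand setting behind them are not given in the sources used here. Read depth was not used, so the precision of a level is read only from the spread over gilts. A symbol was found for 14692 of 24358 genes, and coordinates are those of RefSeq genes of Sscrofa11.1 matched by symbol.

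Levels were transformed to log2(TPM + 1), so fold changes of low genes are understated. Genes with at least 1 TPM in at least 3 libraries of a model were tested in limma 3.58.1 (R 4.3.3) with a variance trend, and p-values were adjusted by Benjamini-Hochberg over all genes of that model. A gene passed below an adjusted p of 0.05 with an absolute log2 fold change above 1. The ± beside a fold change is the SE of the limma fit, from 1 estimate of the spread over all libraries of the model. Layers, and the difference of the layer effect between states, were modeled on all 18 libraries with the gilt as a block. States within a layer were modeled on its 9 libraries without pairing, as the study did with its own tool. CM and LM libraries with the same number within a state were taken as those of 1 gilt. Their deviations from the group means correlated at 0.19 to 0.53 in 9 of 9 pairs, against -0.44 to 0.06 for other pairs.

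The members and the gene lists were chosen with earlier results of these data known. Named genes were the members, the 5 genes (3 for members other than P2RX1) with the highest Pearson correlation, annotated neighbours and overlapping genes, and up to 4 passing genes of each pathway list with the largest change. ADORA2B, ENTPD1, ADA, ADA2, ITPR1, ACP3, the single macrophage markers, CAMKK2 in the mean comparison and the other P2 receptors that did not pass were named after their values were seen. Alternatives were a pseudocount of 0.1, no filter, median-ratio scaling, the block left out or added, and each gilt or library removed in turn. Removal of CD15M_LM3 and GD15M_LM2 together, with their gilts in the layer comparisons, was chosen after seeing the data. The procedure was tested on simulated data. Plots were drawn with matplotlib 3.10.9.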

Additional observations from a re-analysis of the deposited data

Results flagged for a closer look

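GPR171, a G protein-coupled receptor gene 5766 bases from P2RY14 within MED12L, had a layer effect that differed between pregnant and cyclic gilts. On day 15 the difference of CM minus LM was 1.67 ± 0.19 in GD15M and -0.47 ± 0.19 in CD15M, and the test of the difference itself gave 2.14 ± 0.27 on the log2 scale (limma adjusted p = 0.016). GPR171 was at 4.42, 6.53 and 18.0 TPM in GD15M_CM and 0.60, 1.82 and 4.36 TPM in GD15M_LM. The call was lost without the gilt block (limma adjusted p = 0.72) and when any of 5 of the 6 gilts was left out, with values of 2.07 to 2.27. P2RY14 did not follow it (0.33 ± 0.31, limma adjusted p = 0.70). All 5 T cell markers passed as higher in CM in GD15M, where GPR171 also did, and their part was not tested.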

How the results depend on the processing

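A tested value within 1 SE of 0 was given no direction. Of the alternative values of single genes, 1060 kept direction and call, 62 lost a call, 7 gained one and 6 reversed. The reversed ones were the P2RX1 layer effect of GD15M minus GD12M (0.078 at a pseudocount of 0.1 and -1.25 to 0.71 when each gilt was left out, the highest without GD12M gilt 2) and the P2RY2 state differences in LM. With each library left out P2RY2 was -0.090 to 1.31 for GD15M minus CD15M and -0.14 to 1.26 for GD15M minus GD12M, in each case lowest without GD15M_LM2, and without both LM libraries that stand apart it was -0.31 and -0.14. The count of passing members in place of 0 was 1 with a pseudocount of 0.1 in GD12M, in GD15M and in the mean layer comparison (P2RY14), 1 in the GD15M layer comparison without both gilts whose LM library stands apart (P2RY6) and 1 in LM for GD15M minus CD15M without both LM libraries that stand apart (P2RX1). Leaving out 1 gilt or library gave 0 to 1 members in LM for GD15M minus CD15M and in the GD15M layer comparison, and 0 in the others.

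Counts over all genes between states moved more. Without the filter they went from 23 to 10 in CM and from 0 to 4 in LM (GD15M minus CD15M and GD15M minus GD12M, respectively). The replicate number does not pair gilts of different states, and as a replicate block it gave 7 in place of 23 and 9 in place of 4 genes in CM (GD15M minus CD15M and GD15M minus GD12M) and 6 in place of 25 in LM for GD15M minus CD15M. It turned no member's call. The pairing by gilt was used in the layer comparisons, and with no replicate block the layer effect of GD15M minus GD12M had 0 in place of 3 genes. That count was 13 with median-ratio scaling, 1 with a pseudocount of 0.1 and 9 without both gilts with an LM library that stands apart, and the same removal gave 74 in place of 29 for GD15M minus CD15M. Without both LM libraries the LM counts were 317 in place of 25 and 4 in place of 0. Leaving out 1 gilt or library gave 1 to 68 and 1 to 355 genes in CM (GD15M minus CD15M and GD15M minus GD12M, the highest both without GD15M_CM1), 0 to 368 in LM for GD15M minus CD15M (0 without GD15M_LM3 and 368 without CD15M_LM3), and 3 to 87 and 0 to 13 for the layer effects. In the layer comparisons it gave 1353 to 2628 genes in GD12M and 1267 to 1660 in GD15M.

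Median-ratio scaling moved the split of genes higher and lower in CM from 2062 and 373 to 1689 and 725 in GD12M, from 1667 and 546 to 1393 and 807 in GD15M, from 1807 and 137 to 1185 and 385 in CD15M and from 1908 and 322 to 1447 and 565 in the mean, and in LM for GD15M minus CD15M from 23 and 2 to 16 and 5. The cause of these changes was not tested. TPM hold no depth, so the counting error of the low levels of P2RY14 and P2RY2 could not be estimated.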
